A study of Mus musculus with 8 samples.

Results

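The intraflagellar transport genes Ift74, Ift81, Ift80, Ift88, Ift20, Ift57 and Ift52 and the cilium gene Cep290 were followed through precipitates of the germ-cell protein Dazl from mouse testis. These 8 genes were taken by their gene names on the array, from a table of 17574 named genes with measurable signal, and were picked because Ift74 and Cep290 had been seen to be missing from every precipitate. The arrays carried 17 probes for them, of which 14 exceeded background clearly on the 2 arrays of some group, and each of the 8 genes had at least 1 such probe. All values below that set a precipitate against input for these genes are therefore descriptions, and tests are given only between precipitates.

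Intraflagellar transport moves building material along the microtubules of a cilium or sperm tail. Large protein trains, made of the IFT-A and IFT-B complexes, are carried to the tip by kinesin-2 and back to the base by dynein-2, and cargo membrane proteins are coupled to them by the BBSome. Cep290 sits in the transition zone, the gate at the base of the cilium that decides which proteins enter. In the testis the same machinery is needed to build the sperm flagellum, which is assembled after meiosis.

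Testes of male mice of a C57BL/6 129SV mixed background were collected at postnatal day 14, and all samples were described as juvenile germ cells that express Dazl-GFP-V5, a fusion of the RNA-binding protein Dazl with 2 tags. Dissociated, lysed testes were used for native RNA immunoprecipitation, without crosslinking, with anti-V5, with anti-GFP or, as a mock, with normal mouse IgG, and input total RNA was kept. Each of the 4 groups had 2 one-colour arrays (8 in all), and nothing says that the 2 came from separate animals, so p-values measure the spread between these arrays, which may be technical. The series text names anti-PABP1 where the samples name anti-GFP, and the free-text descriptions of input replicate 2 and V5 replicate 1 go against their titles, which were followed here.

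Between 57.2% and 62.2% of the spots were well above background on each array, and the 2 arrays of a group correlated at 0.9945 to 0.9973 over all genes. Signals are given as a percent of the array's own 75th percentile, so they show a transcript's share of what that array measured and not the amount of RNA brought down. V5 and GFP arrays shared 1 slide, and IgG and input arrays shared the other. Differences between slides therefore cannot be told apart from those that set V5 or GFP against IgG or input. Dazl, the tagged protein's own transcript, was at 716 and 653 in V5, 1043 and 911 in GFP, 402 and 299 in IgG and 1418 and 1503 in input. It rose 1.97-fold in V5 and 2.81-fold in GFP over IgG (limma, adjusted p = 0.00404 and 0.000368).

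Markers of other testis cells were present beside those of germ cells. The summed signal of 7 measured germ-cell markers was 8662 to 8668 in V5, 10410 to 11750 in GFP, 4845 to 5243 in IgG and 12560 to 12660 in input. That of 7 Sertoli markers was 15180 to 15900, 13030 to 14160, 20890 to 20970 and 20590 to 21020 in the same order of groups. That of 4 peritubular myoid markers was 2079 to 2312 in V5, 1735 to 1809 in GFP, 2986 to 3484 in IgG and 7047 to 7239 in input, and that of 4 leukocyte markers was 178.3 to 192.4, 144.5 to 156.6, 248.7 to 289.9 and 305.2 to 317.2. So myoid and leukocyte sums were below input in every precipitate, and Sertoli sums in V5 and GFP. The sums of 5 Leydig and 3 endothelial markers were lower in V5 and GFP than in input and higher in IgG than in input. All measured markers of these lists were well above background on both input arrays. The sums are shares of the RNA signal from lysed testes and not counts of cells, and the part of these shifts in the results below was not tested.

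Ift74 and Ift81 form a pair in the core of the IFT-B complex. Ift74 was read by 1 probe, whose signal was 0.870 and 1.11 in V5, 1.38 and 0.718 in GFP, 1.84 and 0.743 in IgG and 114.2 and 105.8 in input. All 6 precipitate arrays were not well above background, and both input arrays were above the 75th percentile. Ift74 was at least 46.6-fold lower in V5, at least 42.7-fold lower in GFP and at least 38.9-fold lower in IgG than in input. These bounds set the input mean against the lowest signal that was well above background on each precipitate array, or the probe's own signal where that was higher. No comparison among V5, GFP and IgG was possible for Ift74, since all were below that level. In the authors' deposited table, which holds no IgG arrays, the Ift74 mean in V5 was 1.10% and the mean in GFP 0.920% of the input mean.

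Cep290, the transition zone protein, showed the same pattern at a lower input signal and on 2 probes. The brighter probe was at 0.631 and 0.796 in V5, 0.695 and 0.811 in GFP, 1.08 and 1.08 in IgG and 24.4 and 23.4 in input. The other was at 0.617 and 0.749 in V5, 0.635 and 0.767 in GFP, 0.851 and 0.798 in IgG and 23.9 and 15.8 in input. Neither probe was well above background on any precipitate array, and both were on both input arrays. By the brighter probe Cep290 was at least 10.2-fold lower in V5, at least 9.29-fold lower in GFP and at least 8.46-fold lower in IgG than in input. By the other probe the bounds were 8.25-fold, 7.55-fold and 6.88-fold in the same order of groups. The Cep290 means in the authors' deposited table were 3.47% and 2.20% of input in V5 and 2.94% and 0.817% of input in GFP for its 2 entries.

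Such a loss was uncommon. Of 17002 genes well above background on both input arrays, 292 were well above it on no precipitate array, which is 1.72%. Among the 8206 genes whose input mean exceeded the 75th percentile there were 2, Ift74 and Kntc2. Kntc2 is an older name of Ndc80, a kinetochore gene, and is named here after its values were seen. Within 0.25 log2 units of the input signal of Ift74, 2 of 1001 genes were lost in this way, Ift74 included. Within the same distance of Cep290, 6 of 841 were. Ift74 and Cep290 were picked for this loss, so these counts only describe it.

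**Figure D1:**
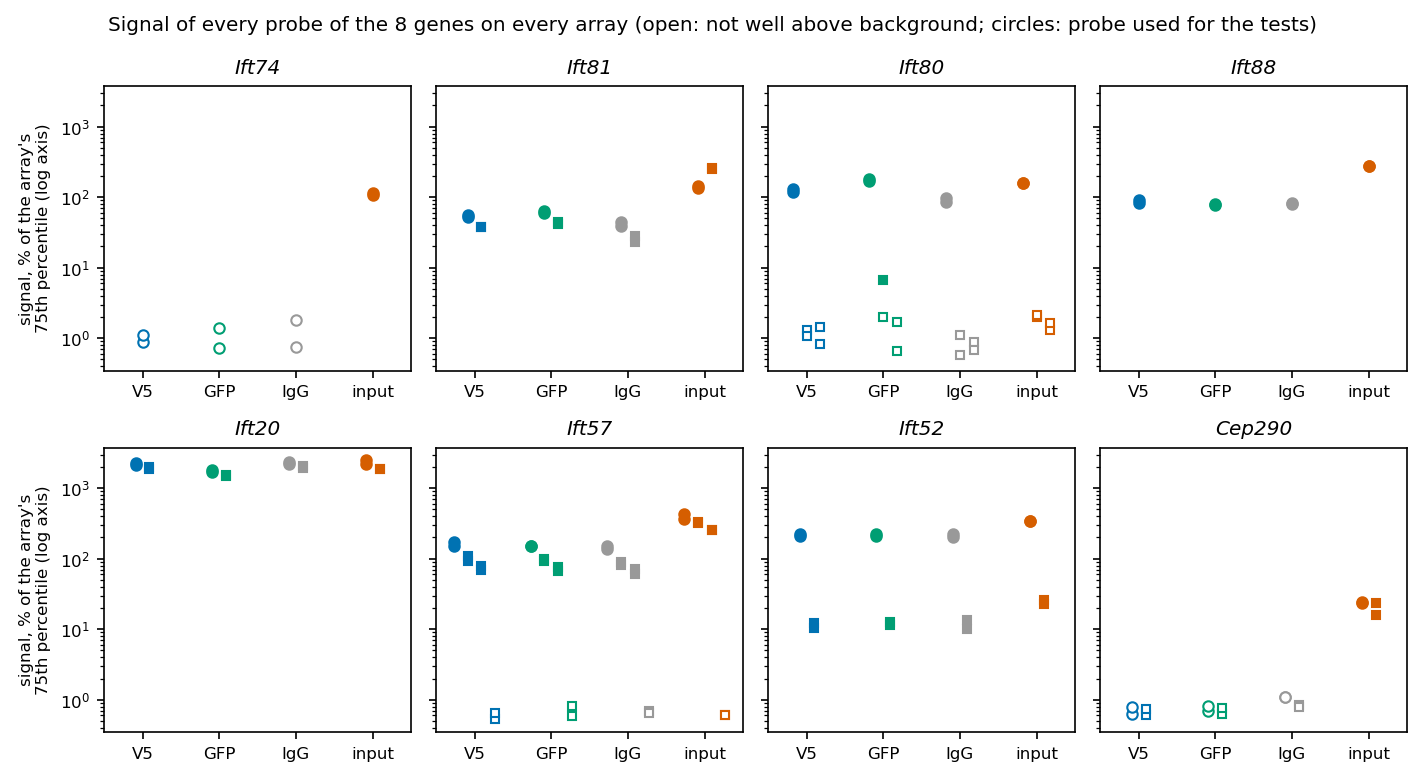
Signal of all 17 probes of the 8 genes on each of the 8 arrays, as a percent of the array's 75th percentile on a log axis, with V5, GFP, IgG and input from left to right in each panel. Ift74 and Cep290 have open symbols, not well above background, on every precipitate array and filled ones on both input arrays, while the probe used for each other gene is filled throughout.

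Ift81, the partner of Ift74, stayed measurable in every precipitate. Its main probe, the one with the highest mean log2 signal over all arrays, was at 55.4 and 52.4 in V5, 64.1 and 60.0 in GFP. It was at 44.7 and 39.2 in IgG and 145.8 and 133.2 in input. The 4 groups did not overlap, with input highest, then GFP, then V5, then IgG. Against input Ift81 was 2.59-fold lower in V5, 2.25-fold lower in GFP and 3.33-fold lower in IgG. By its second probe it was 6.78-fold lower in V5, 5.90-fold lower in GFP and 9.91-fold lower in IgG. In input that probe was the brighter of the pair, at 253.2 on average beside 139.5. The 2 probes thus gave the same order of groups with different sizes.

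Ift88 and Ift52 also belong to the IFT-B core, and Ift88 is the protein altered in a classic mouse model of polycystic kidney disease. Ift88 was at 92.7 and 82.2 in V5, 78.0 and 79.2 in GFP, 83.1 and 80.0 in IgG and 279.8 and 278.9 in input. All 6 precipitate values lay close together and far below input, with V5 overlapping IgG. Ift88 was 3.199-fold lower in V5, 3.55-fold lower in GFP and 3.43-fold lower in IgG than in input. Ift52 was at 207.5 and 220.9 in V5, 212.8 and 223.7 in GFP, 226.7 and 205.3 in IgG and 343.6 and 340.6 in input. Its precipitates overlapped one another and were 1.57-fold to 1.60-fold lower than input, while its dimmer second probe was 2.03-fold to 2.17-fold lower.

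Ift57, Ift20 and Ift80 belong to the peripheral part of IFT-B. Ift57 was at 151.6 and 172.5 in V5, 152.7 and 149.6 in GFP, 153.9 and 137.6 in IgG and 426.1 and 370.6 in input. Precipitates overlapped one another and lay below input, by 2.46-fold in V5, 2.63-fold in GFP and 2.73-fold in IgG. The 2 other probes of Ift57 that were kept were 3.33-fold to 3.91-fold lower in the precipitates, and 1 more was not well above background on any array.

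Ift20, a small IFT-B protein that is also found at the Golgi, was nearly level on this scale. Its main probe was at 2241 and 2128 in V5, 1826 and 1685 in GFP, 2316 and 2182 in IgG and 2183 and 2475 in input. V5 and IgG overlapped input, and GFP lay below all other groups. By this probe Ift20 differed from input by -0.09 in V5, -0.41 in GFP and -0.05 in IgG on the log2 scale. With spike-in scaling the values of Ift20 were -0.51, -0.68 and -0.88 in the same order of groups. Its second probe differed by 0.06, -0.30 and 0.12, of which the V5 and IgG values turn negative under spike-in scaling. In the authors' deposited table the Ift20 means were 113.8% and 124.8% of input in V5 and 90.3% and 97.3% in GFP for its 2 entries, so V5 lay above input there.

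Ift80, which is mutated in a human skeletal ciliopathy, was at 129.8 and 117.0 in V5, 180.0 and 170.3 in GFP, 97.6 and 84.4 in IgG and 160.1 and 160.0 in input. The groups did not overlap, and GFP was the highest on this scale. The log2 difference of Ift80 from input was -0.38 in V5, 0.13 in GFP and -0.82 in IgG, and with spike-in scaling, which sets arrays to equal signal of added control RNA, the GFP value was -0.14. The brightest Ift80 entry of the authors' deposited table was at 94.6% of input in V5 and 135.5% in GFP. The 2 other Ift80 probes on the arrays were not well above background, apart from 1 of them on GFP replicate 1 at 6.77.

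Of the 8 genes, 7 had both V5 arrays below both input arrays, and 7 each did so in GFP and IgG. The exception was Ift20 in V5 and IgG and Ift80 in GFP. Over all 17574 genes the shares were 44.6% in V5, 47.2% in GFP and 34.4% in IgG. The median log2 difference of the 8 genes from input was -1.33 in V5, -1.28 in GFP and -1.59 in IgG, beside 0.006, -0.06 and 0.22 over all genes. The genes were chosen on this comparison, so these counts only describe them.

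**Figure D2:**
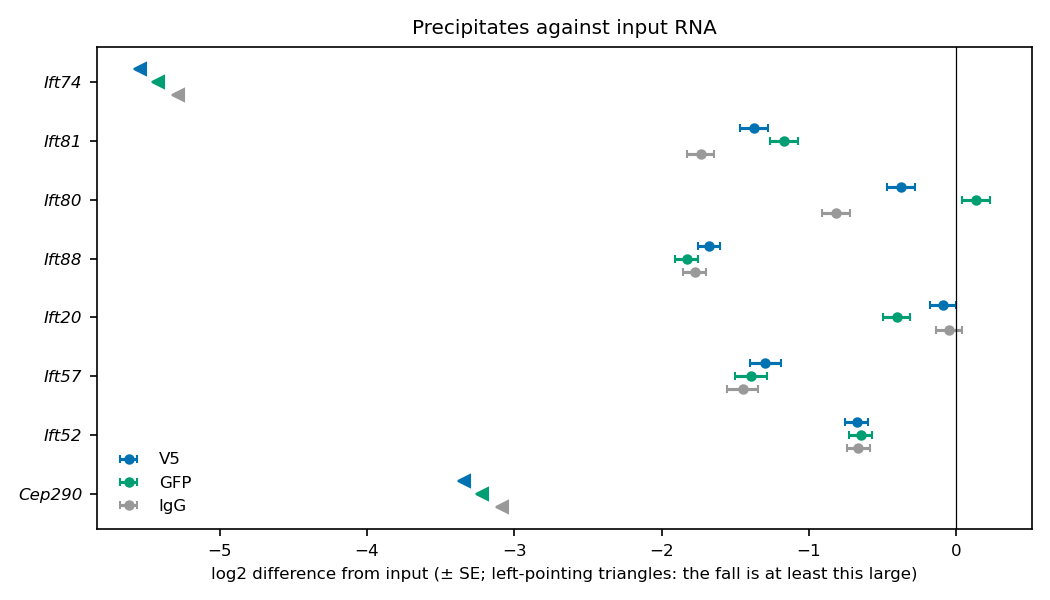
Log2 difference from input of V5, GFP and IgG for the main probe of each gene, with standard errors; triangles mark the smallest difference that the background allows for Ift74 and Cep290. Ift81, Ift88 and Ift57 lie between -1.83 and -1.17, Ift52 near -0.66 and Ift20 between -0.41 and -0.05, while Ift80 is at -0.38 in V5, 0.13 in GFP, which turns negative under spike-in scaling, and -0.82 in IgG.

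Whether these transcripts had a larger share of the signal in V5 and GFP than in the mock could be tested for 6 genes, all but Ift74 and Cep290. These groups also differ by slide, and shares do not give amounts of RNA brought down. Ift81 and Ift80 rose in both precipitates over IgG. Ift81 was 1.29-fold higher in V5 (log2 0.36, SE 0.09, limma adjusted p = 0.0175) and 1.48-fold higher in GFP (log2 0.57, SE 0.09, limma adjusted p = 0.00184). Its second probe was 1.46-fold and 1.68-fold higher (limma over all kept probes, adjusted p = 0.00742 and 0.00102). Ift80 was 1.36-fold higher in V5 (log2 0.44, SE 0.10, limma adjusted p = 0.0101) and 1.93-fold higher in GFP (log2 0.95, SE 0.10, limma adjusted p = 0.000364). For both genes every array of V5 and GFP lay above both IgG arrays. Both comparisons use the same 2 IgG arrays.

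Ift20 fell 1.28-fold in GFP against IgG (log2 -0.36, SE 0.09, limma adjusted p = 0.0102), close to the median of all genes in that comparison, and its sign turned under spike-in scaling (0.20). Its second probe fell 1.34-fold (limma over all kept probes, adjusted p = 0.00304). Ift88, Ift57 and Ift52 passed the test in neither comparison, nor did Ift20 in V5. Their log2 differences from IgG ran between -0.04 and 0.15 in V5 and between -0.05 and 0.06 in GFP. With spike-in scaling Ift88, Ift57 and Ift52 were called higher than IgG in both precipitates and Ift20 in V5.

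So 2 of the 6 genes were called higher and 0 lower in V5 by limma (0 lower at an unadjusted p under 0.05 too), where 16.7% of all genes were higher and 40.3% lower. In GFP 2 were higher and 1 lower, where 21.6% of all genes were higher and 52.1% lower. The median log2 difference of the 6 genes was 0.13 in V5 and 0.04 in GFP, beside medians over all genes of -0.21 and -0.32. For Ift81 and Ift80 the V5 calls were less firm than those in GFP. Ift81 lost its call in V5 without IgG replicate 2 (adjusted p = 0.0647 by limma), V5 replicate 1 (0.0874) or V5 replicate 2 (0.0503), and Ift80 without V5 replicate 1 (0.0581). The call of Ift20 in GFP was lost with quantile normalization (log2 -0.21, limma adjusted p = 0.0753), with spike-in scaling and without GFP replicate 2. Only Ift80 in GFP kept its call with normexp background correction.

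Between the Dazl precipitates, Ift80 fell 1.42-fold in V5 against GFP (log2 -0.51, SE 0.10, limma adjusted p = 0.0313), with all V5 arrays below all GFP arrays. By main probe none of the other 5 genes passed by limma, 1 of them, Ift20, having an unadjusted p under 0.05, and 7.2% of all genes were lower and 6.81% higher in V5. Ift81 differed by -0.20 (limma adjusted p = 0.159) and Ift20 by 0.32 (limma adjusted p = 0.0592). The second probe of Ift20 did pass, 1.29-fold higher in V5 without overlap of the arrays (limma over all kept probes, adjusted p = 0.0394). The call of Ift80 was lost when any 1 of the input, V5 or GFP arrays was left out (limma adjusted p between 0.0775 and 0.143).

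**Figure D3:**
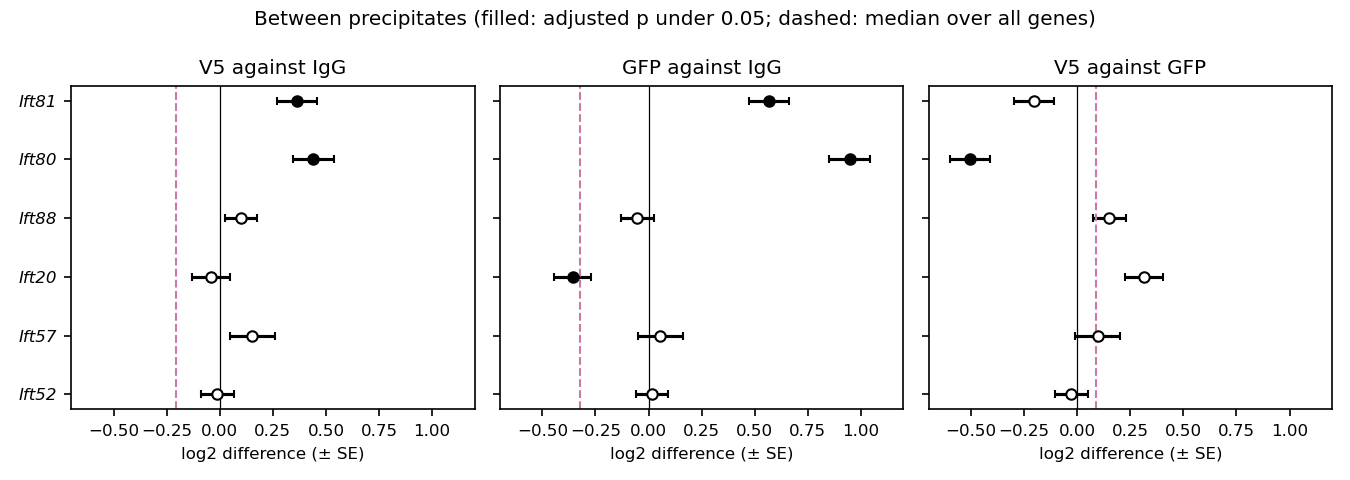
Log2 differences with standard errors of the 6 measured genes for V5 against IgG, GFP against IgG and V5 against GFP; filled points passed the test and the dashed line is the median over all genes. Ift81 and Ift80 lie to the right of 0 in both comparisons with IgG, and Ift20 in GFP lies on the median of all genes (-0.32), a value whose sign turns under spike-in scaling.

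The other members of the same machinery were read from lists of 107 genes in 7 groups, of which 99 were measured. Higher and lower calls against IgG numbered 16 and 33 in V5 and 19 and 51 in GFP, which is 16.2% and 33.3%, and 19.2% and 51.5%, beside the shares of all genes given above. Against input, 22 were higher and 48 lower in V5, 24 and 55 in GFP, and 32 and 47 in IgG. Over all genes 35.6%, 39.1% and 29.4% were lower and 37.7%, 36.2% and 43.9% higher in the same order of groups. Median log2 differences of the 99 genes from input were -0.23 in V5, -0.32 in GFP and -0.19 in IgG.

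These directions depend on the scaling. Scaling to spike-in probes added 0.42 to every log2 difference of V5 from IgG and 0.56 to that of GFP from IgG, and the calls became 44 higher and 1 lower, and 50 higher and 3 lower. Against input it left 12 higher and 72 lower in V5, 17 and 66 in GFP, and 10 and 77 in IgG. Without V5 replicate 1 or V5 replicate 2 the V5 calls against IgG numbered 31 and 30 in place of 49. Between V5 and GFP 5 genes were higher and 6 lower in V5, and this count of 11 became 0 without any 1 of the input, V5 or GFP arrays and 27 without either IgG array. With normexp background correction none of the 99 genes was called in V5 against IgG by limma (25 at an unadjusted p under 0.05), so every V5 call against IgG named next was lost there, and 19 genes were called in GFP in place of 70. Without the 2 arrays whose descriptions conflict, 2 genes were called in V5 against IgG. The genes named next kept their sign under spike-in scaling unless stated.

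In the rest of IFT-B, 1 of 10 measured genes rose over IgG in V5 and 4 fell, and 1 rose and 5 fell in GFP. The falls were 40% and 50%, beside 40.3% and 52.1% of all genes, and the rises 10% each, beside 16.7% and 21.6%. Ttc30a1, a core subunit, rose 1.61-fold in V5 and 1.96-fold in GFP (limma adjusted p = 0.00486 and 0.000548). Cluap1, a peripheral subunit, was lower than input by 4.08-fold in V5, 4.90-fold in GFP and 3.72-fold in IgG (limma adjusted p = 8.73e-06, 4.91e-06 and 8.33e-06). In IFT-A, which serves the return trip, 4 of 7 genes fell in V5 and 6 of 7 in GFP against IgG, or 57.1% and 85.7%. Ift122 was 1.56-fold lower in GFP (limma adjusted p = 0.000368) and 1.33-fold lower in V5 (limma adjusted p = 0.00435). With spike-in scaling its log2 difference shrank to -0.08 in GFP and turned to 0.01 in V5.

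Among 9 motor genes, 2 rose and 2 fell in V5 against IgG, and 2 rose and 5 fell in GFP. That is 22.2% each in V5, and 22.2% and 55.6% in GFP, beside the shares of all genes above. Kif3a, a motor subunit of kinesin-2, was 4.80-fold lower in V5, 5.44-fold lower in GFP and 4.53-fold lower in IgG than in input (limma adjusted p = 8.26e-06, 4.91e-06 and 7.3e-06). Tctex1d2, a light chain of dynein-2, rose 1.44-fold in V5 and 1.94-fold in GFP over IgG (limma adjusted p = 0.0047 and 0.00027).

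Of 12 BBSome genes, 4 rose and 0 fell in V5 against IgG (limma, and at an unadjusted p under 0.05 also 4 and 0). In GFP 5 rose and 2 fell. That is 33.3% and 0% in V5, beside 16.7% and 40.3% of all genes, and 41.7% and 16.7% in GFP, beside 21.6% and 52.1%. Arl6, the small GTPase that recruits the BBSome to membranes, was 1.61-fold higher in V5 and 2.01-fold higher in GFP (limma adjusted p = 0.00735 and 0.000806). Against input 9 fell in V5, 9 in GFP and 10 in IgG. These are 75%, 75% and 83.3%, beside 35.6%, 39.1% and 29.4% of all genes. Lztfl1, which regulates BBSome traffic, was 7.98-fold lower in V5, 7.80-fold lower in GFP and 12-fold lower in IgG than in input (limma adjusted p = 1.14e-05, 6.97e-06 and 7.25e-06).

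The transition zone, to which Cep290 belongs, gave 19 measured genes, and 3 rose and 3 fell in V5 against IgG (15.8% each). Over all genes 16.7% rose and 40.3% fell in V5. In GFP 4 rose and 9 fell, or 21.1% and 47.4%, beside 21.6% and 52.1% of all genes. Tctn1 fell 1.65-fold in V5 and 2.08-fold in GFP (limma adjusted p = 0.00152 and 0.000151). Iqcb1, whose protein binds Cep290, rose 1.52-fold in V5 and 2.03-fold in GFP (limma adjusted p = 0.00485 and 0.000345). Of the 19, 11 were higher and 5 lower in IgG than in input. That is 57.9% and 26.3%, beside 43.9% and 29.4% of all genes, a split that moves with the scaling as above.

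Of 23 basal body and satellite genes 5 rose and 8 fell in V5 against IgG, and 5 rose and 10 fell in GFP. That is 21.7% and 34.8% in V5, beside 16.7% and 40.3% of all genes, and 21.7% and 43.5% in GFP, beside 21.6% and 52.1%. Arl13b, a ciliary GTPase, rose 1.67-fold in V5 and 2.39-fold in GFP (limma adjusted p = 0.00199 and 0.000136). Sclt1, a distal appendage gene, was at 2.996 in V5, 3.03 in GFP, 2.25 in IgG and 72.5 in input on average, or 24.2-fold lower in V5, 24.0-fold lower in GFP and at least 25.7-fold lower in IgG. In the motile axoneme list 1 of 19 measured genes rose and 12 fell in V5 and 2 rose and 14 fell in GFP. That is 5.26% and 63.2% in V5, and 10.5% and 73.7% in GFP, beside the same shares of all genes. The gene that rose in V5 was Rfx3, which codes for an RFX factor and not for a part of the axoneme. It rose in GFP too. The median log2 difference of the axoneme list from IgG was -0.37 in V5 and -0.52 in GFP, beside -0.21 and -0.325 for all genes. Of the 98 list genes well above background on both input arrays, 1, the axonemal gene Spag17, was well above it on no precipitate array. One of the 14 axonemal genes lower in GFP than in IgG is this gene, which was not well above background in either.

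**Figure D4:**
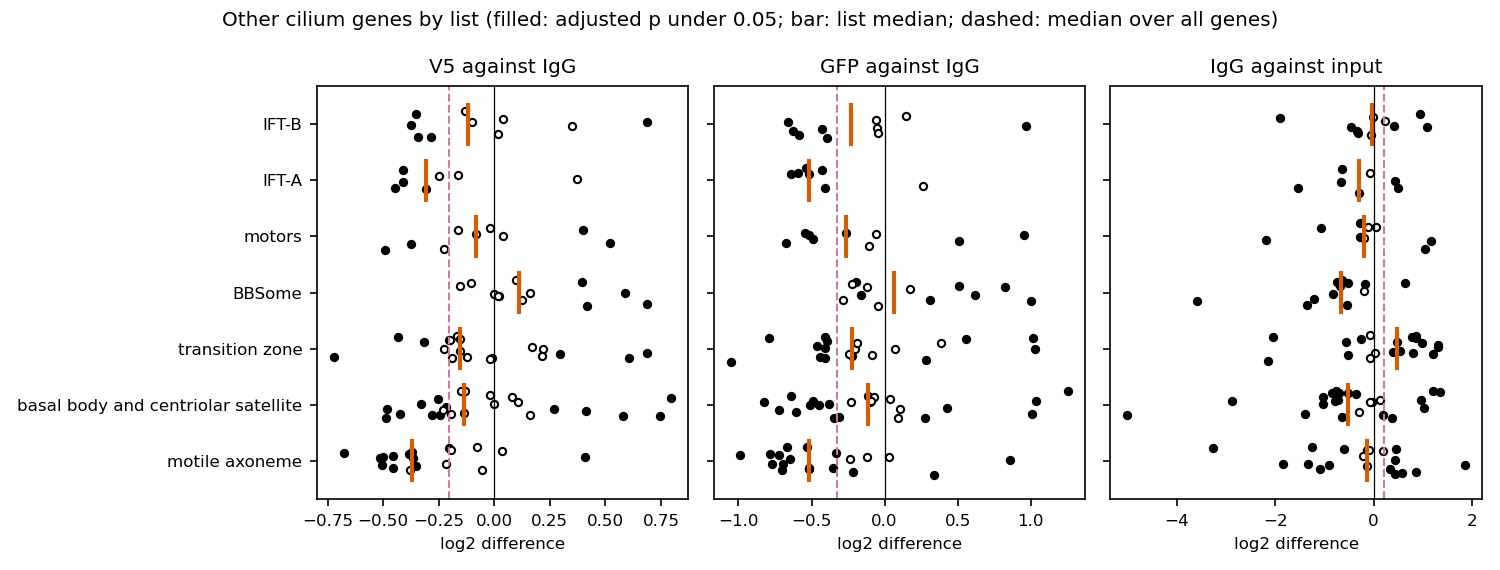
Log2 differences of the 99 other cilium genes by list for V5 against IgG, GFP against IgG and IgG against input; filled points passed the test, bars are list medians and dashed lines the median over all genes. In the V5 and GFP panels the medians of IFT-A and the axoneme lie to the left of the dashed line and those of all other lists to its right. In V5 the line is at -0.21, and the list medians run between -0.37 in the axoneme and 0.11 in the BBSome. In GFP the line is at -0.325, with IFT-A and the axoneme both at -0.52, the basal body at -0.115 and the BBSome at 0.06. Scaling to spike-in probes shifts every point in a panel equally.

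Ift74 and Cep290 were not well above background on 6 of the 8 arrays, so likeness to their profiles describes mainly the step between precipitates and input on which they were chosen. The genes whose profile over the 8 arrays was most like that of Ift74 were Ppp1r7, Dhx9, Zfp292, Htatsf1 and Eif2s1, with Pearson correlations of log2 signal between 0.9972 and 0.9988. Those nearest to Cep290 were Zfp54, Usp24, Kctd12b, Niban and the BBSome gene Bbs2, between 0.9983 and 0.999. The 8 points are 4 groups of 2 arrays and mainly split precipitates from input, so many genes reach high values. Among the 8 genes, Ift74 correlated at 0.984 with Ift88, 0.986 with Ift57 and 0.985 with Cep290, and at 0.398 with Ift80 and 0.493 with Ift20. Htatsf1 was at 74.4 in V5, 73.7 in GFP, 79.9 in IgG and 1160 in input, and remained well above background on all 6 precipitate arrays, whereas Zfp54, the nearest to Cep290, was well above it on 0 of the 6.

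Most of the 8 genes are long. Their spans in the RefSeq annotation of GRCm38.p6 were 112.2 kb for Ift80, 93.9 kb for Ift88, 90 kb for Ift74, 88.1 kb for Cep290, 74.3 kb for Ift81, 65.8 kb for Ift57, 29 kb for Ift52 and 5.4 kb for Ift20. Over 15098 genes with a known span, or 85.9% of those measured, the IgG mock and input differed with length. The median log2 difference of IgG from input was -0.11 in the 3020 longest genes, which include 5 of the 8, and 0.43 in the 3020 shortest, which include Ift20. Spearman's correlation across genes was -0.244, given without a p since genes share the same 4 arrays. It was weaker for V5 (-0.127) and GFP (-0.077) against input. Against IgG the trend ran the other way, with correlations of 0.244 in V5 and 0.238 in GFP. The median log2 difference from IgG was -0.09 in V5 and -0.15 in GFP for the longest genes. For the shortest genes it was -0.34 in V5 and -0.51 in GFP. The longest include Ift81 and Ift80, the pair that rose over IgG. They also include Ift88, which passed the test against IgG in neither precipitate (log2 0.10 in V5 and -0.05 in GFP). Length was looked at after the values were seen, and its part in the results was not tested.

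**Figure D5:**
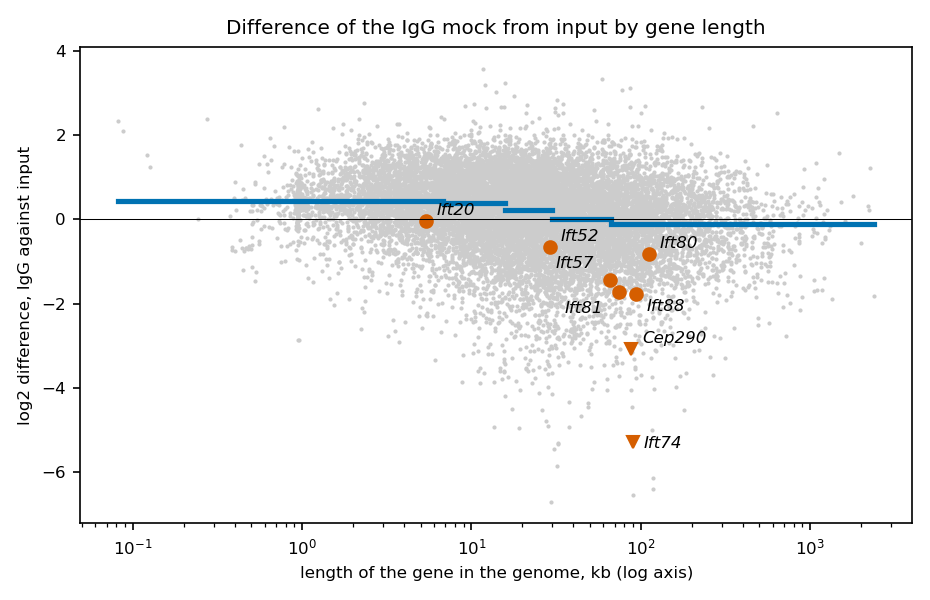
Log2 difference of IgG from input against the length of the gene in kb on a log axis; grey points are 15098 genes, blue bars the medians of 5 equal groups of genes by length, orange symbols the 8 genes, with triangles for the bounds of Ift74 and Cep290. The blue medians run between 0.43 in the shortest group and -0.11 in the longest, and each of the 8 genes lies below the bar of its length group on this scale.

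RefSeq promoter windows of GRCm38.p6, 250 bases before to 50 after the start, were at hand for 6 of the 8 genes, all but Ift80 and Ift81. They are shown because RFX factors, which switch on many ciliary genes, bind an X-box built from repeats of GTTGC or close variants. Capitals mark GTTGC on either strand. The motif was chosen with the sequences in view. The windows, all on the plus strand, are chr4:94614241-94614540 for Ift74, chr16:49699044-49699343 for Ift57 and chr10:100487332-100487631 for Cep290.
Ift74: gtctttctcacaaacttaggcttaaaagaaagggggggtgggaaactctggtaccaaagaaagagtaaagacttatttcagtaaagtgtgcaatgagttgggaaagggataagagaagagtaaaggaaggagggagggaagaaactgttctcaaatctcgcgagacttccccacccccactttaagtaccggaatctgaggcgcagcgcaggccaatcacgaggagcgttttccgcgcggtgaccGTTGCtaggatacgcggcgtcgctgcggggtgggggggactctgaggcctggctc
Ift57: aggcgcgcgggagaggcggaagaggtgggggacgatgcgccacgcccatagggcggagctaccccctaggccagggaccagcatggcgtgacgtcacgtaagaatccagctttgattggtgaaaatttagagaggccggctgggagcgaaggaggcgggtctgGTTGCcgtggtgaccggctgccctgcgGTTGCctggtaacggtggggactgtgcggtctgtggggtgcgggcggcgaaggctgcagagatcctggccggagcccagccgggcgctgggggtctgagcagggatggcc
Cep290: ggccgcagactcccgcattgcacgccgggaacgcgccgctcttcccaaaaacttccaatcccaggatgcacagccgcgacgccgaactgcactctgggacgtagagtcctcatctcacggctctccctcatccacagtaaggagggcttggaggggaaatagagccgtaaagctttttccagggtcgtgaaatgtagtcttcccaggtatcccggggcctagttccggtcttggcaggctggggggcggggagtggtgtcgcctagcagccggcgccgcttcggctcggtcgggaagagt
Ift74 has 1 match, Ift57 has 2 and Cep290 has none in its window. The Ift74 window lies inside the annotated gene span, at a start site downstream of the first one. Of the 6 genes 5 held GTTGC, against 35.2% of all 32851 windows. Ift88 and Ift57 also held the longer GTTGCC, which contains it, against 12.5% of all windows. A match is a string of letters and not a site, and the arrays measured RNA, not promoter activity.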

How the data were processed

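RNA of 8 samples was labelled and hybridised to Agilent arrays in 1 colour, 43379 spots without controls covering 41174 probes. Per the file headers, the authors' deposited intensity values, with background subtracted, come from Feature Extraction 9.1.3.1. The signal means in the authors' deposited table were normalized to the median, per its comment lines, with the scale beyond that unknown; its 6 other value columns were not used.

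Log2 of the processed signal minus the array's 75th percentile was taken, outlier spots were left out, spots of a probe averaged, and probes kept that exceeded background clearly on the 2 arrays of some group. The probe with the highest mean log2 signal over all arrays stood for a gene. Group means were fitted over all 8 arrays with limma 3.58.1 in R 4.3.3, with two-sided p-values adjusted by Benjamini-Hochberg over 17574 genes at 0.05 in each of 6 comparisons. The number of arrays limits the precision. The fit was tested on simulated data.

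The 8 genes and all lists were chosen with earlier results of these data known. Named genes outside the 8 are those with the smallest p per list and direction, a part of which is printed, and the 5 most alike to Ift74 and Cep290 by correlation. Symbols were updated through RefSeq. Probe sequences were not analysed here, so where on a transcript a probe lies is not given. Arrays were not treated as paired by replicate number: deviations correlated between -0.075 and 0.107 across groups, so no strong shared shift was seen. Whether arrays of the same number shared a source cannot be read from this. Alternatives were other background correction, scaling, filters, probe rules, sets of arrays and a replicate block.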

Additional observations from a re-analysis of the deposited data

How the results depend on the processing

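Ift80 in GFP against IgG kept its direction and its call under all alternatives run, and Ift81 in GFP under all but normexp background correction (limma adjusted p = 0.0762). The brightest probe of a gene was picked anew with normexp. Ift81 then differed from input by -2.435 in V5, -2.318 in GFP and -2.855 in IgG, nearer to its second probe than to its main probe. The part of the probe in this lost call was not tested. Scaling to spike-in probes turned the sign of 4 differences from IgG, those of Ift20 (0.38) and Ift52 (0.41) in V5 and of Ift88 (0.51) and Ift20 (0.20) in GFP. Normexp left Ift74 at -2.80 in V5, -2.93 in GFP and -2.87 in IgG against input, and Cep290 at -0.81, -1.03 and -0.83; its offset of 50 shrinks dim signals. Among the cilium lists, normexp called 0 genes in V5 against IgG in place of 49, 19 in GFP against IgG in place of 70, 0 in V5 against GFP in place of 11, 38 in V5, 41 in GFP and 44 in IgG against input in place of 70, 79 and 79. At an unadjusted p under 0.05 limma with normexp gave 25 genes in V5 against IgG and 2 in V5 against GFP, where the values as reported gave 51 and 42. For V5 against GFP the count was 17 with quantile normalization, 0 with no filter on dim probes, 2 with the replicate block, 0 without input replicate 2 and V5 replicate 1 together, whose descriptions conflict, and 0 in a fit of those 4 arrays of 1 slide; with limma at an unadjusted p under 0.05 the 3 counts of 0 were 36, 12 and 45. Leaving out 1 array at a time gave 0 to 27 for V5 against GFP, where each input, V5 or GFP array gave 0 (18 to 38 at an unadjusted p under 0.05) and each IgG array 27, and 30 to 51 for V5 against IgG. For V5 against IgG, leaving out the 2 arrays with conflicting descriptions gave 2 genes and fitting the 4 arrays of these groups alone gave 31, where Ift81 lost its call (limma adjusted p = 0.0506). The replicate block changed no call of the 6 tested genes. Other causes of these changes were not tested. Each group lay on 1 slide, so with the slide as a block only comparisons within a slide can be fitted. Their estimates would be those of the main fit, and a slide term was not fitted.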
